A study of Mus musculus with 15 samples.

Results

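Quadriceps muscle of adult mouse offspring was examined for 10 genes of the myostatin and activin signalling system, namely Mstn, Gdf11, Fst, Fstl3, Fstl1, Acvr2a, Acvr2b, Acvr1b, Tgfbr1 and Smad7. They were chosen by symbol, through the Ensembl identifier in the GENCODE mouse annotation, and all 10 were found among the 50686 genes of the deposited table. The mice were C57BL/6, 10 months old, and fell into 5 groups of 3. MHE offspring had a dam fed the 60% high-fat diet for 6 weeks from 8 weeks of age, mated with a lean male of 14 weeks and given a free running wheel in pregnancy. MHS offspring had a dam of the same diet whose wheel was locked. PHE offspring had a sire fed the high-fat diet on the same schedule and a lean dam of 14 weeks with a free wheel in pregnancy. PHS offspring had such a sire and a lean dam with a locked wheel. NCS offspring, the control of both arms, had chow-fed parents and a dam with a locked wheel. Every offspring ate chow and was sedentary from the day after birth, and no group combined chow-fed parents with an exercised dam.

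Myostatin, encoded by Mstn, is a secreted ligand of the transforming growth factor beta (TGF-beta) family that skeletal muscle fibres make, and animals lacking it have enlarged muscles. It binds a type II activin receptor (ACVR2B or ACVR2A), which recruits a type I receptor (ACVR1B, also called ALK4, or TGFBR1, also called ALK5) that phosphorylates SMAD2 and SMAD3. These pair with SMAD4 and enter the nucleus. Follistatin, encoded by Fst, and the related FSTL3 are secreted proteins that bind myostatin and activins and keep them from their receptors, while SMAD7 inhibits the type I receptors inside the cell.

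The libraries held 18457663 to 26981745 recovered reads, and the labels do not say whether mice of a group were littermates, so p-values measure only the spread between these samples. The leading number of the sample title, whose meaning is not stated, was 7 for all MHS libraries and for MHE replicate 3. No NCS or PHS library had that number, so differences of MHS from NCS or PHS cannot be told apart from it. Muscle identity held, as 10 of 10 fibre markers had reads in every group and summed to 180549 to 241822 CPM (counts scaled to the library total). Some libraries stood apart. MHS replicate 3 and NCS replicate 2 had the fewest genes detected (17581 and 17699, against 19062 to 20771 elsewhere). Liver markers, all 28 of which had reads in every group, summed to 31.1 to 57.7 CPM in MHE, 33.3 to 4775 CPM in MHS, 38.6 to 48.9 CPM in PHE, 25.6 to 307 CPM in PHS and 32.4 to 239 CPM in NCS, and the libraries above 100 CPM were MHS replicates 2 and 3, PHS replicate 1 and NCS replicate 2. In MHE replicate 3 the fibroblast markers summed to 1193 CPM, against 166 to 343 CPM in the other 14 libraries.

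Mstn had the higher mean in the offspring of exercised dams in both arms, with 1329 ± 357 normalized counts in MHE against 686 ± 312 in MHS, and 1325 ± 298 in PHE against 738 ± 81.6 in PHS (SD, n = 3 each). Fst differed in opposite directions, with 62.0 ± 6.22 normalized counts in MHE against 37.6 ± 8.72 in MHS, and 39.6 ± 3.63 in PHE against 57.8 ± 9.42 in PHS. The receptor genes Acvr2a and Tgfbr1 varied with Mstn from library to library, but genes outside the list, led by Zeb1 (r = 0.96), did so more closely. None of the 10 genes passed an adjusted p of 0.05 over all 13499 genes tested with limma in any comparison, where 0% of all genes did, so the differences are given as values with their errors, and unadjusted p-values are printed beside the adjusted ones.

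**Figure D1:**
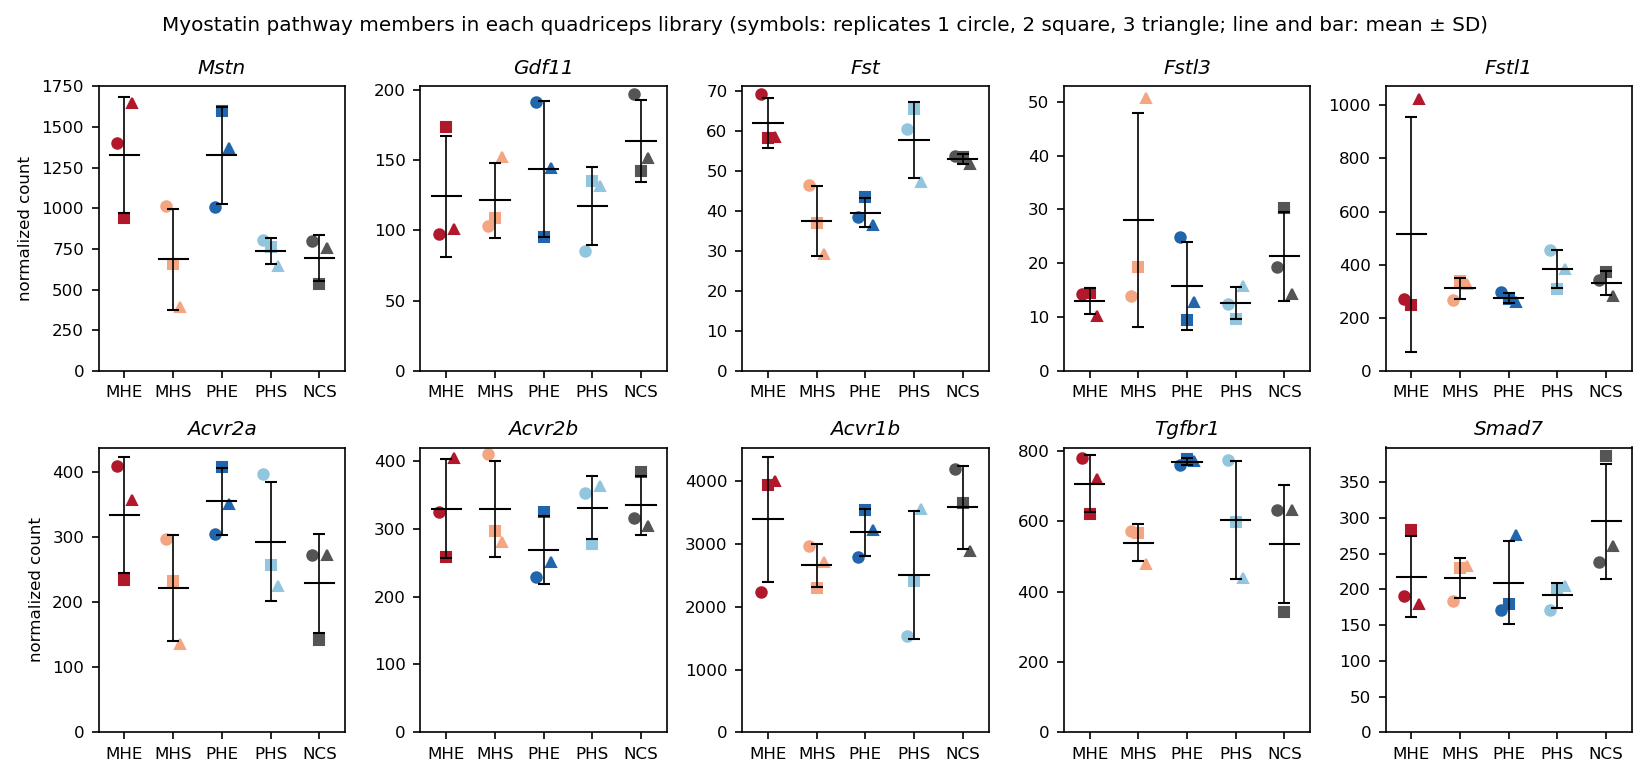
Normalized counts (y axes, from 0) of the 10 genes in the 15 quadriceps libraries by group (x axes). Symbols are replicates 1 to 3, the line is the group mean and the bar is ± 1 SD. Mstn lies between 941 and 1644 in the MHE and PHE libraries and between 391 and 1013 in the other 9 libraries, and Fstl1 has a single high library, MHE replicate 3 at 1025.

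Mstn (ENSMUSG00000026100.6, chr1:53061640-53068079, plus strand, GRCm38) had 1402, 941 and 1644 normalized counts in MHE, against 1013, 655 and 391 in MHS. The lowest MHE library lay below the highest MHS library, so these groups overlapped. In the paternal arm Mstn had 1008, 1599.5 and 1368 normalized counts in PHE, against 805, 762 and 647 in PHS. Every PHE library lay above every PHS library. The control NCS libraries had 799, 534 and 753 normalized counts, below all 6 libraries of the exercised groups. In bulk tissue, fewer fibres that express a gene and less of its RNA per fibre cannot be told apart.

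By limma, Mstn was 1.02 ± 0.29 higher in MHE than in MHS on the log2 scale (SE, 95% interval 0.40 to 1.64, unadjusted p = 0.00327, adjusted p = 0.516), a fold of 2.03. It was 0.82 ± 0.29 higher in PHE than in PHS (95% interval 0.20 to 1.45, unadjusted p = 0.0128, adjusted p = 0.991), a fold of 1.77. These exercise differences did not differ detectably between the arms, the difference of differences being 0.20 ± 0.41 (unadjusted p = 0.643, adjusted p = 0.999) with a 95% interval of -0.68 to 1.08 that leaves room for a sizeable gap. Against NCS, Mstn was 0.92 ± 0.29 higher in MHE (unadjusted p = 0.00673, adjusted p = 0.566) and 0.93 ± 0.29 higher in PHE (unadjusted p = 0.00635, adjusted p = 0.285). The sedentary high-fat groups lay near NCS, at -0.10 ± 0.29 in MHS (unadjusted p = 0.730) and 0.10 ± 0.29 in PHS (unadjusted p = 0.734). MHS was -0.20 ± 0.29 from PHS (unadjusted p = 0.496), and MHE was -0.0083 ± 0.29 from PHE (unadjusted p = 0.978), a value that turned positive by library totals, edgeR and DESeq2. In order of mean log2 level the groups ran PHE, MHE, PHS, NCS and MHS, and the single gap larger than the larger SD of the neighbours was that of 0.82 between MHE and PHS.

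Of the libraries rich in liver reads, MHS replicate 3 and NCS replicate 2 also had the fewest genes detected. In those libraries the 2 traits cannot be told apart. The maternal difference of Mstn was smaller without the libraries rich in liver reads. Without MHS replicates 2 and 3, PHS replicate 1 and NCS replicate 2 it was 0.35 (unadjusted p = 0.254), with MHS replicate 1 then the only MHS library and assumed to vary like the other groups. Without MHS replicate 3 alone it was 0.67, and without MHS replicate 1 it was 1.35 with an adjusted p of 0.0422, where 0.807% of all genes were called. The paternal difference was 0.89 without the libraries rich in liver reads. With the liver markers as a covariate over all 15 libraries it was 0.72 (unadjusted p = 0.0506) in the maternal and 0.81 (unadjusted p = 0.0109) in the paternal arm.

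Close relatives among the 10 genes were compared over their most alike 100-base coding stretches (GENCODE M21 transcripts), since reads were of that length. These differed at 20 bases for Acvr2a and Acvr2b, at 18 for Acvr1b and Tgfbr1, and at 36 for Fst and Fstl3.

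The Mstn promoter is shown because Mstn is the gene with the largest exercise difference of the 10 and because of its contrast with that of Acvr2a, the gene of the 10 that varied most closely with it. Both are RefSeq windows of 300 bases (GRCm38.p6), from 250 bases before to 50 bases after the gene's start, at chr1:53061390-53061689 for Mstn and chr2:48813859-48814158 for Acvr2a, both on the plus strand, with E-boxes (CANNTG, the motif that muscle transcription factors such as MyoD bind) and TATA boxes (TATAAA) in capitals.
Mstn: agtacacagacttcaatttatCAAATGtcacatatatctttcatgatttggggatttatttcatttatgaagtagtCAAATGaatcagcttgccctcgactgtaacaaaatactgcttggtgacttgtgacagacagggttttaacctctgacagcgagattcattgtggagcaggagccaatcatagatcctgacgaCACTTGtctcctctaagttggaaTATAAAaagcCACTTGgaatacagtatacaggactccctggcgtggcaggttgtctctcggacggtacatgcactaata
Acvr2a: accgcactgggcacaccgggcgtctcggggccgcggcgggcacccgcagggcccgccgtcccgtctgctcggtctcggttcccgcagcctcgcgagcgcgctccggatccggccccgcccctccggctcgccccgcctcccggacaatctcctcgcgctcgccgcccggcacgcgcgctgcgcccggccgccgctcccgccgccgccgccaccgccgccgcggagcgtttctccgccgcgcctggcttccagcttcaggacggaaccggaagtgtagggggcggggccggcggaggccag
The Mstn window had 41.3% G and C, 6 CG pairs, 4 E-boxes and 1 TATA box, which began 29 bases before the start. The Acvr2a window had 80.3% G and C, 54 CG pairs and neither motif. Searched on both strands, with overlapping matches counted, CANNTG was present in 72.3% and TATAAA in 13.6% of 32817 windows of the same length. CAGAC, the core of SMAD binding elements, occurred 2 times for Mstn and 1 time for Acvr2a, and was present in 49.6% of windows. GTAAACA, bound by FoxO factors, was in neither window and in 3.65% of all. The median window had 7 CG pairs, and 99.7% of windows had no more than that of Acvr2a. Of the 10 genes, 8 had a window. Mstn was not alone in its motifs, as Fstl3 also had a TATA box that began 29 bases before the start, with 3 E-boxes. Gdf11 had 1 TATA box, which began 185 bases before the start, and Fstl1, Acvr2b, Acvr1b and Tgfbr1 had none.

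Gdf11 (ENSMUSG00000025352.6, chr10:128882295-128891718, minus strand) encodes GDF11, a ligand that uses the same receptors as myostatin. It had 97.7, 174 and 101.4 normalized counts in MHE, against 103, 109 and 152 in MHS. It had 192, 95.4 and 144 normalized counts in PHE, against 85.5, 135 and 132 in PHS. The NCS libraries had 197, 142 and 151 normalized counts, and all PHS libraries lay below them, by 0.49 ± 0.28 on the log2 scale (unadjusted p = 0.105), while MHE, MHS and PHE overlapped NCS. Neighbouring groups in the order NCS, PHE, MHE, MHS, PHS did not differ beyond their spread.

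Fst (ENSMUSG00000021765.7, chr13:114452290-114458951, minus strand) was a low gene, resting on 27 to 81 recovered reads per library. It had 69.2, 58.3 and 58.6 normalized counts in MHE, against 46.6, 36.9 and 29.2 in MHS, and all MHE libraries lay above all MHS libraries. It had 38.6, 43.6 and 36.5 normalized counts in PHE, against 60.6, 65.4 and 47.3 in PHS, and all PHE libraries lay below all PHS libraries. The NCS libraries sat close together at 53.9, 53.5 and 51.6 normalized counts, below MHE, above MHS and PHE, and inside the range of PHS. An antisense gene shares 115 exonic bases with Fst in the annotation, and reads of the 2 genes cannot be told apart there if strand was ignored in counting.

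By limma, Fst was 0.73 ± 0.21 higher in MHE than in MHS on the log2 scale (95% interval 0.28 to 1.18, unadjusted p = 0.00359, adjusted p = 0.516). It was -0.53 ± 0.21 in PHE relative to PHS (95% interval -0.98 to -0.075, unadjusted p = 0.0253, adjusted p = 0.991). The exercise difference was thus 1.25 ± 0.30 larger in the maternal than in the paternal arm (95% interval 0.62 to 1.89, unadjusted p = 0.000784, adjusted p = 0.999). Fst ranked 2 of 13499 genes by the unadjusted p of this difference of differences, and 27 genes (0.2%) shared the pattern of no overlap in either arm with opposite directions. Under the alternatives the value was between 0.89, with MHS replicate 1 as the only MHS library, and 1.44. Between the exercised groups Fst was 0.64 ± 0.21 higher in MHE than in PHE (unadjusted p = 0.00894, adjusted p = 1.000), and between the sedentary groups -0.62 ± 0.21 in MHS relative to PHS (unadjusted p = 0.0104, adjusted p = 0.723). Against NCS it was 0.22 ± 0.21 in MHE (unadjusted p = 0.318), -0.51 ± 0.21 in MHS (unadjusted p = 0.0290, adjusted p = 1.000), -0.42 ± 0.21 in PHE (unadjusted p = 0.0677) and 0.11 ± 0.21 in PHS (unadjusted p = 0.614). The groups ran MHE, PHS, NCS, PHE and MHS by mean log2 level, and the single gap between neighbours larger than their SD was that of 0.42 between NCS and PHE. Without the 4 libraries rich in liver reads, MHS replicate 1 being then the only MHS library, Fst was 0.40 in MHE relative to MHS (unadjusted p = 0.194), -0.25 in MHS relative to PHS (unadjusted p = 0.432) and -0.18 in MHS relative to NCS (unadjusted p = 0.581). With the liver markers as a covariate the maternal difference was 0.66 (unadjusted p = 0.0276).

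**Figure D2:**
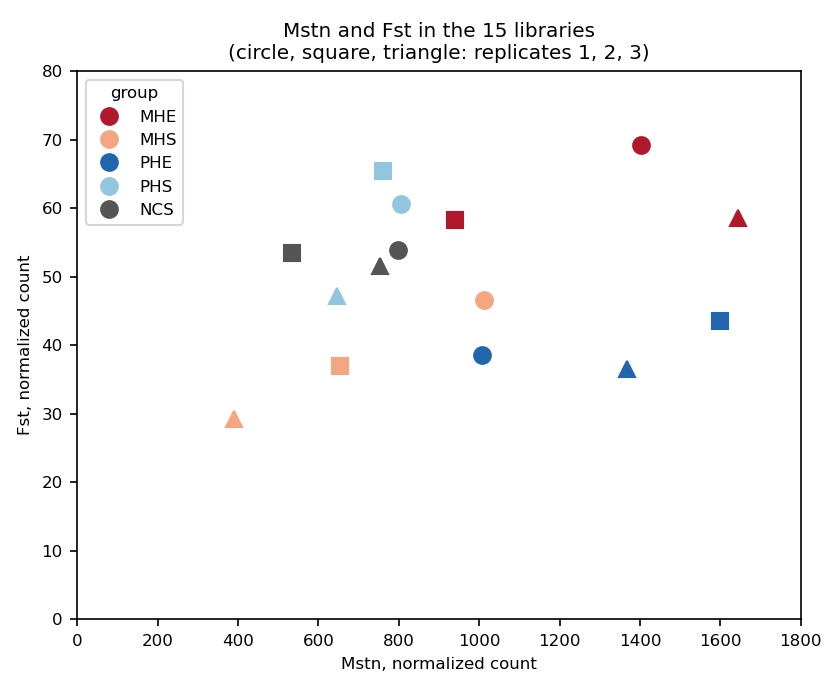
Normalized counts of Fst (y axis) against those of Mstn (x axis) in each of the 15 libraries, coloured by group, with symbols for replicates 1 to 3. The PHE libraries lie at high Mstn and low Fst (36.5 to 43.6), the MHE libraries at high Mstn and high Fst (58.3 to 69.2), and the MHS libraries at low Fst (29.2 to 46.6).

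The ratio of Mstn to Fst, taken on the RPKM scale (reads scaled by exon length and library total), was 34.4, 27.4 and 47.6 in MHE, against 36.9, 30.1 and 22.7 in MHS. It was 44.3, 62.3 and 63.6 in PHE, against 22.5, 19.8 and 23.2 in PHS. The NCS libraries had ratios of 25.2, 16.9 and 24.7. The ratio in PHE lay above every PHS and NCS library, whereas MHE and MHS overlapped.

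Fstl3 (ENSMUSG00000020325.10, chr10:79777272-79782630, plus strand) was the lowest of the 10 genes in normalized counts and in RPKM, with 8 to 47 recovered reads per library. It had 14.2, 14.6 and 10.1 normalized counts in MHE, against 14.0, 19.3 and 50.8 in MHS, where MHS replicate 3, one of the libraries with the fewest genes detected, was the highest of all 15. It had 25.0, 9.42 and 12.7 in PHE, against 12.5, 9.70 and 15.8 in PHS, and 19.3, 30.3 and 14.2 in NCS. The groups overlapped in every comparison and no unadjusted p was under 0.05. The neighbouring gene Prss57 shares 1157 exonic bases with Fstl3 on the opposite strand.

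Fstl1 (ENSMUSG00000022816.11, chr16:37776873-37836514, plus strand) encodes a secreted protein that fibroblasts and other mesenchymal cells express. It had 269.7, 249 and 1025 normalized counts in MHE, against 266, 338 and 326 in MHS. The value of MHE replicate 3 was the only one above 454. That library was also the one in which the fibroblast markers (5 of 5 with reads in every group) summed to 1193 CPM; the sums were 190.3 to 1193 CPM in MHE, 166 to 255 CPM in MHS, 176 to 244 CPM in PHE, 205 to 343 CPM in PHS and 216 to 233 CPM in NCS, with Col1a1 at 487 CPM and Col3a1 at 505 CPM in MHE replicate 3. Their part in the Fstl1 value was not tested. In the paternal arm Fstl1 had 296, 271 and 258 normalized counts in PHE, against 454, 310.2 and 383 in PHS. All PHE libraries lay below all PHS libraries, by 0.46 ± 0.37 on the log2 scale (limma, unadjusted p = 0.239). The NCS libraries had 343, 371 and 282.

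Of the type II receptors, Acvr2a (ENSMUSG00000052155.5, chr2:48814109-48903269, plus strand) had 408, 234 and 357 normalized counts in MHE, against 296, 233 and 135 in MHS. It had 304, 408 and 351 normalized counts in PHE, against 397, 256 and 224 in PHS, and 272, 141 and 271 in NCS. The exercised and sedentary groups overlapped in both arms, while every PHE library lay above every NCS library. By limma, Acvr2a was 0.68 ± 0.32 higher in PHE than in NCS (unadjusted p = 0.0486, adjusted p = 0.363), and 0.37 without NCS replicate 2. Acvr2a shares 446 exonic bases with Orc4 on the opposite strand. Acvr2b (ENSMUSG00000061393.14, chr9:119402118-119434995, plus strand), the receptor that binds myostatin most tightly, had 325, 259 and 404 normalized counts in MHE, against 409.9, 296 and 281 in MHS. It had 229, 325 and 251 in PHE, against 353, 277 and 363 in PHS, and 316, 384 and 304 in NCS. Its groups overlapped in every comparison, and its differences between 2 groups ran from -0.32 to 0.29 on the log2 scale.

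Of the type I receptors, Acvr1b (ENSMUSG00000000532.10, chr15:101174067-101213684, plus strand) was the most abundant of the 10 genes per exon length, at 30.6 ± 6.88 RPKM over the 15 libraries, ahead of Mstn at 15.8 ± 6.64 and Tgfbr1 at 4.32 ± 1.08. Acvr1b had 2243, 3938 and 4001 normalized counts in MHE, against 2963, 2292 and 2719.8 in MHS. It had 2793, 3541 and 3224 in PHE, against 1538, 2404 and 3565 in PHS, and 4199, 3648 and 2895 in NCS. Groups overlapped throughout. Acvr1b was -0.58 ± 0.27 in PHS relative to NCS by limma (unadjusted p = 0.0450, adjusted p = 0.920), and -0.27 without PHS replicate 1, the PHS library with liver markers at 307 CPM.

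Tgfbr1 (ENSMUSG00000007613.15, chr4:47353222-47414931, plus strand) had 779.6, 621 and 719.9 normalized counts in MHE, against 573, 565 and 479.8 in MHS, with no overlap. It had 759, 777 and 771 in PHE, against 773, 598 and 438 in PHS, and 632, 341 and 631 in NCS. The PHE libraries agreed within 9.15 normalized counts (SD), and PHS replicate 1 lay inside their range. By limma, Tgfbr1 was 0.39 ± 0.22 higher in MHE than in MHS (unadjusted p = 0.103) and 0.39 ± 0.22 higher in PHE than in PHS (unadjusted p = 0.101). It was 0.58 ± 0.22 higher in PHE than in NCS, without overlap (unadjusted p = 0.0202, adjusted p = 0.312), and 0.28 without NCS replicate 2.

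Smad7 (ENSMUSG00000025880.11, chr18:75367529-75395935, plus strand), which TGF-beta signalling itself induces as negative feedback, was highest in the control group. It had 191, 283 and 179 normalized counts in MHE, against 184, 230.3 and 233 in MHS. It had 171, 180.2 and 276 in PHE, against 172, 199 and 205 in PHS, and 238, 387 and 261 in NCS. All MHS and all PHS libraries lay below all NCS libraries. By limma, Smad7 was -0.59 ± 0.23 in PHS relative to NCS (unadjusted p = 0.0199, adjusted p = 0.920) and -0.50 ± 0.23 in PHE relative to NCS (unadjusted p = 0.0450, adjusted p = 0.356), and without NCS replicate 2 these values were -0.38 and -0.28. Within the high-fat groups Smad7 was -0.010 ± 0.23 in MHE relative to MHS and 0.095 ± 0.23 in PHE relative to PHS.

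**Figure D3:**
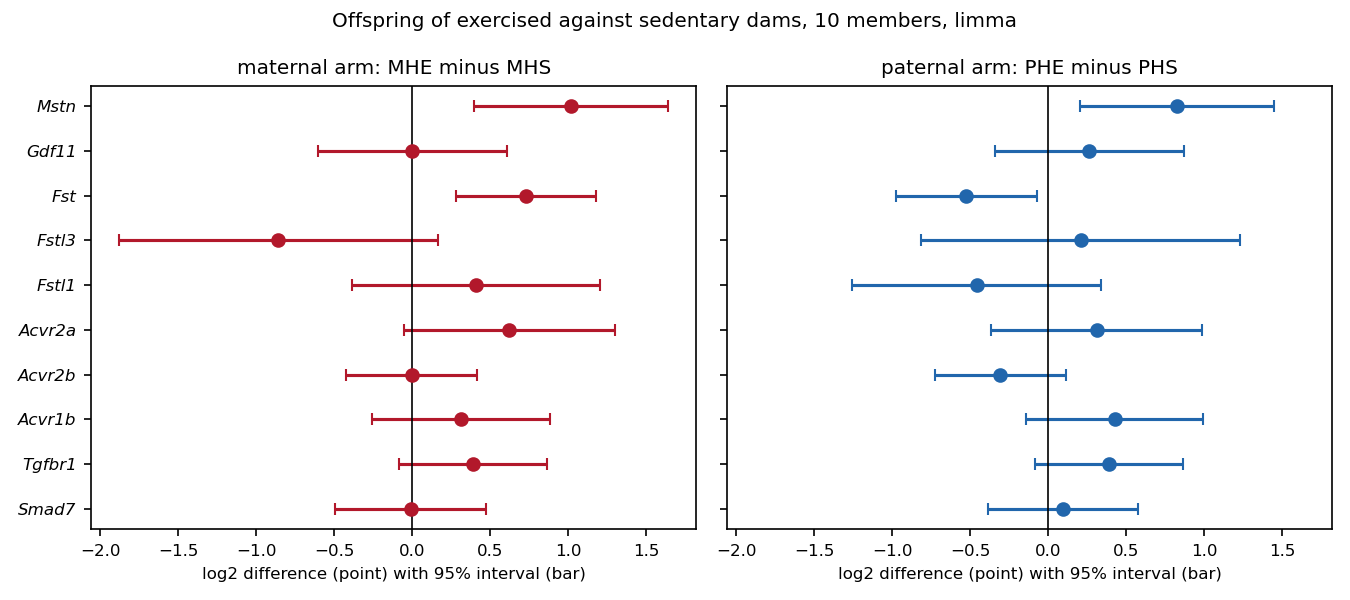
Log2 differences (x axes) of the 10 genes (rows) between offspring of exercised and sedentary dams, with points for the limma estimate and bars for its 95% interval. The intervals of Mstn and Fst exclude 0 in both arms, with Fst at 0.73 in the maternal and -0.53 in the paternal arm, and those of the other 8 genes include 0.

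Read against all genes, the counts were as follows. By unadjusted p under 0.05, 2 of the 10 genes were past the limit in MHE against MHS, where 9.54% of all genes were, and 2 in PHE against PHS, where 3.76% were. Both were Mstn and Fst in each arm. The median log2 difference of the 10 was 0.35 in the maternal and 0.24 in the paternal arm, beside 0.0024 and 0.010 over all genes tested. Against NCS the counts were 1 in MHE (Mstn; 8.76% of all genes), 1 in MHS (Fst; 4.04%), 4 in PHE (Mstn, Acvr2a, Tgfbr1 and Smad7; 13.7%) and 2 in PHS (Acvr1b and Smad7; 2.87%). These comparisons share the NCS libraries. Fst alone was past the limit in MHE against PHE (1.73% of all genes), in MHS against PHS (4.35%) and in the difference of differences (1.8%). Over the 5 groups together the limma F test gave 2, Mstn (unadjusted p = 0.00404, adjusted p = 0.715) and Fst (unadjusted p = 0.0116, adjusted p = 0.715), where 6.71% of all genes were past the limit. By adjusted p none of the 10 and none of all genes (0%) were past 0.05 in any of these limma tests. edgeR and limma voom likewise gave 0 of the 10 in every comparison, and DESeq2 gave 0 in every pairwise comparison and 1, Mstn, in its likelihood ratio test over the 5 groups (adjusted p = 0.0121), a test that called 186 of all genes (1.38%).

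Values did not overlap for Fst and Tgfbr1 in MHE against MHS, that is 2 of the 10 beside 17.2% of all genes, and for 3, Mstn, Fst and Fstl1, in PHE against PHS beside 10.6%. Against NCS they did not overlap for 2 in MHE (Mstn and Fst; 10.3% of all genes), 2 in MHS (Fst and Smad7; 8.02%), 4 in PHE (Mstn, Fst, Acvr2a and Tgfbr1; 20.4%) and 2 in PHS (Gdf11 and Smad7; 5.7%). Fst alone did not overlap in MHE against PHE (8.08%) and in MHS against PHS (7.18%).

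**Figure D4:**
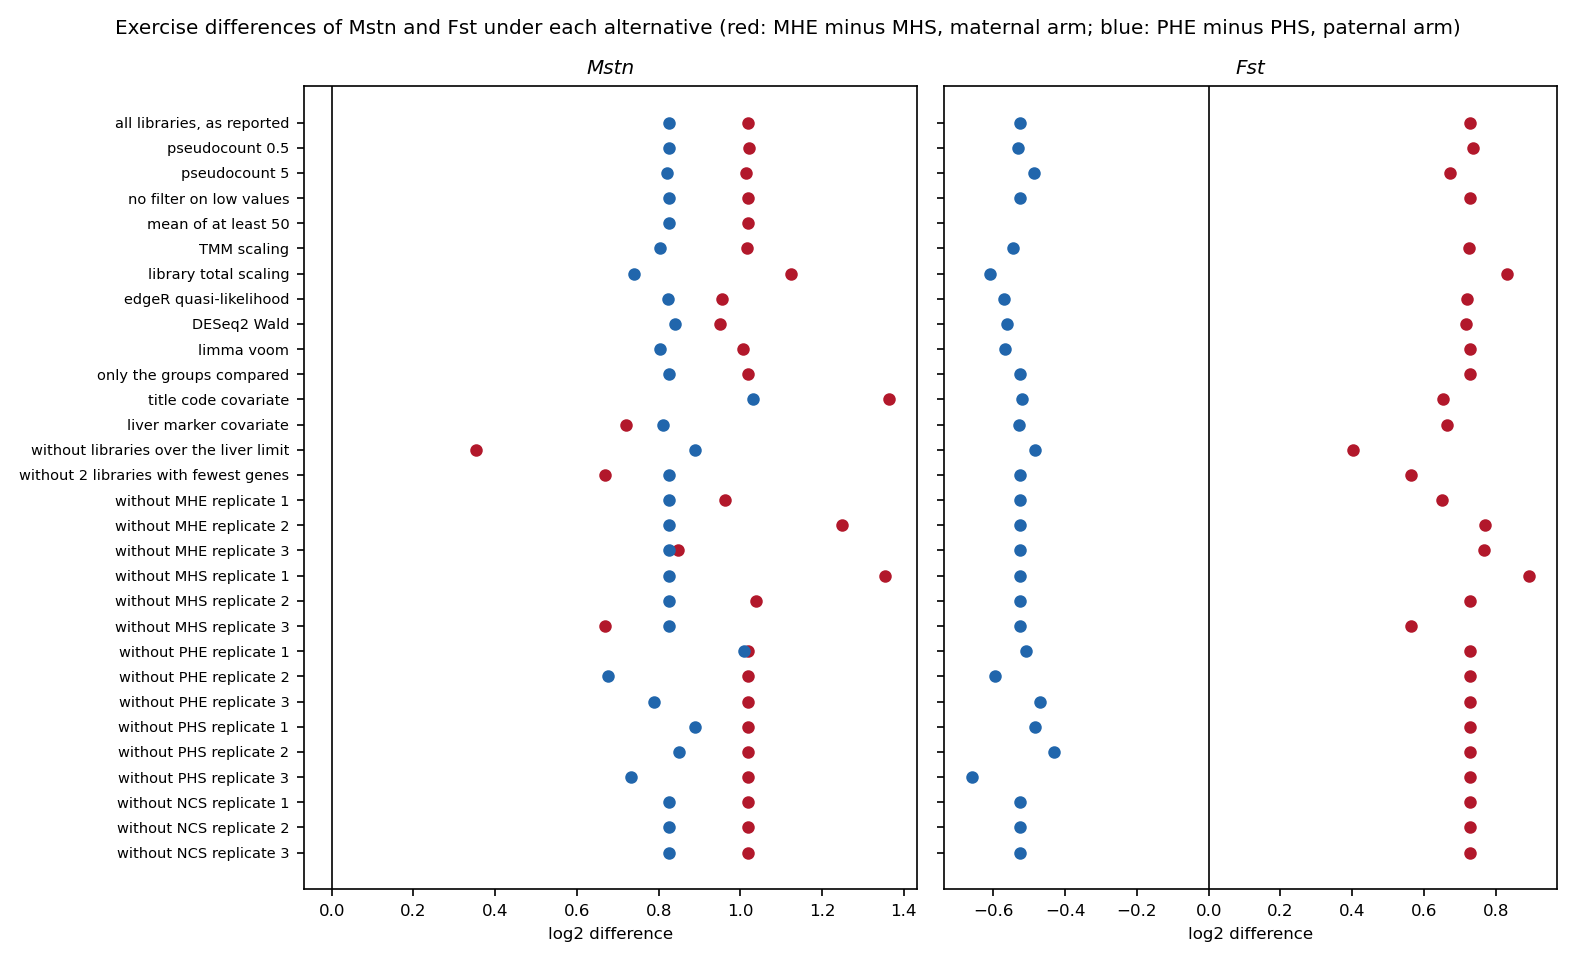
Log2 difference between offspring of exercised and sedentary dams (x axes) for Mstn and Fst under each alternative (rows). Red points are MHE minus MHS and blue points PHE minus PHS. Mstn lies above 0 in both arms in every row, from 0.35 to 1.36 in the maternal arm, where the lowest value rests on MHS replicate 1 alone and the highest, with the number in the sample title (title code) as covariate, on MHE replicate 3 alone; Fst lies above 0 in the maternal and below 0 in the paternal arm.

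Across the 15 libraries the log2 levels of some members went together. All 45 pairs were computed, with 2-sided permutation tests of 100000 draws, whose smallest p is 1e-05, adjusted over the 45 pairs. These tests treat the 15 libraries as interchangeable, although the libraries differed in group and in the number of genes detected. A small p therefore does not mark a relation particular to a pair, and Zeb1, outside the list, had r = 0.96 with Mstn. Mstn and Acvr2a had Pearson's r = 0.87 (permutation p = 1e-05, adjusted 0.00045) and Spearman's rho = 0.89 (adjusted permutation p = 0.00112). Without the 2 libraries farthest from the median of Mstn, MHS replicate 3 and MHE replicate 3, r was 0.82, and without the 2 with the fewest genes detected it was 0.77. After the group means were taken out r was 0.88. Acvr2a and Tgfbr1 had r = 0.89 and rho = 0.94 (adjusted permutation p = 0.00112 and 0.00045), and r = 0.85 without MHS replicate 3 and NCS replicate 2, the libraries with the fewest genes detected. Mstn and Tgfbr1 had r = 0.77 and rho = 0.80 (adjusted permutation p = 0.00735 and 0.0093), r = 0.79 without the 2 farthest libraries and r = 0.58 after the group means were taken out. Fstl3 ran opposite to Acvr2a (r = -0.78, adjusted permutation p = 0.00765, rho = -0.66, adjusted permutation p = 0.0858), but r was -0.42 without MHS replicate 3 and NCS replicate 2, so that relation rests on those libraries. Fstl3 and Mstn had r = -0.74 (adjusted permutation p = 0.0125) and rho = -0.65 (adjusted permutation p = 0.0858), with r = -0.53 without the 2 farthest libraries. Without MHS replicate 3 and NCS replicate 2 their r was -0.45, so this relation too rests in part on those libraries. After the group means were taken out, with all 15 libraries kept, r was -0.74 for Fstl3 and Acvr2a and -0.89 for Fstl3 and Mstn. Mstn and Fst themselves had r = 0.31 (adjusted permutation p = 0.506) and rho = 0.23 (adjusted permutation p = 0.626), with r = -0.12 without the 2 farthest libraries and r = 0.70 after the group means were taken out.

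**Figure D5:**
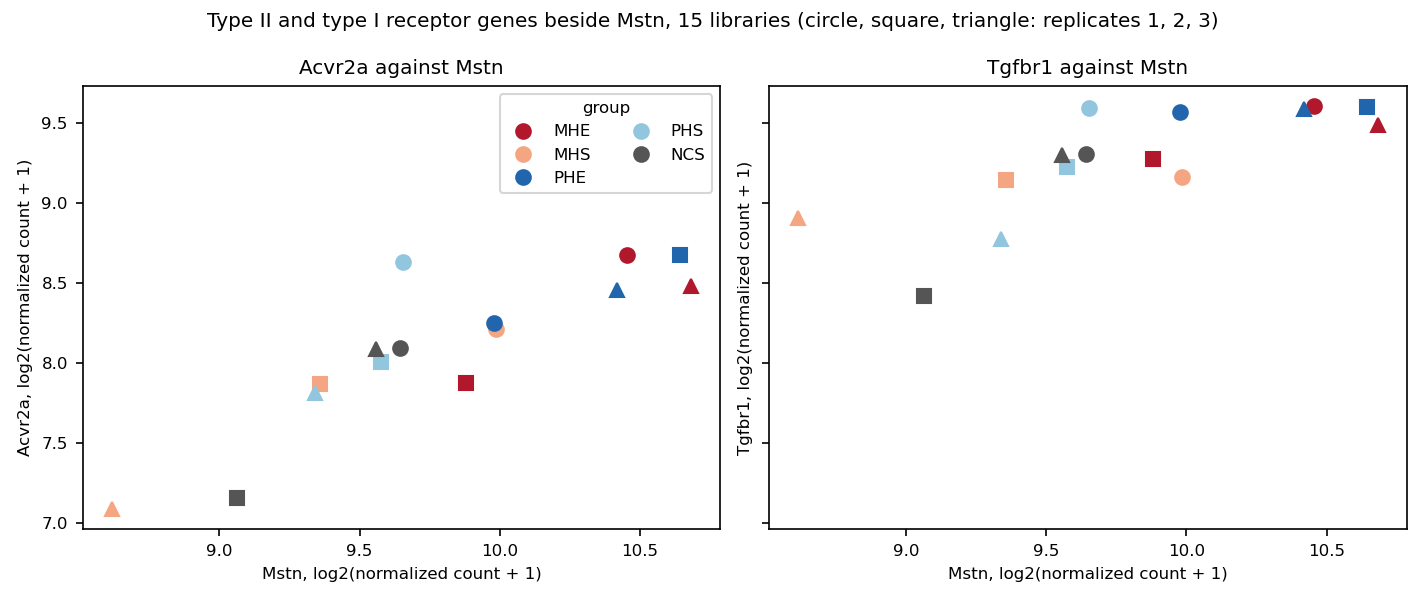
Acvr2a (left) and Tgfbr1 (right) on the y axes against Mstn on the x axes, all as log2 of the normalized count plus 1, in the 15 libraries coloured by group. Acvr2a is lowest in MHS replicate 3 and NCS replicate 2, and Tgfbr1 in NCS replicate 2 and PHS replicate 3, with r = 0.87 for Acvr2a and r = 0.77 for Tgfbr1.

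Among 10389 genes with a mean of at least 50 normalized counts, those whose log2 levels were most like Mstn over the 15 libraries were Zeb1 (r = 0.96), Klhl7 (0.95), Kat7 (0.95), Zranb1 (0.94) and Mier1 (0.94). For Fst they were Fat4 (r = 0.82), Pygo1 (0.78), Hnrnpll (0.78), Cep95 (0.76) and Zfp84 (0.76). Those named for Mstn all had a higher r with it than Acvr2a (0.87), and the share of all genes that reached 0.87 was not computed. These values describe likeness over libraries that also differ in depth and in the number of genes detected.

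Around these genes, 50 further genes of TGF-beta, activin and bone morphogenetic protein (BMP) signalling were listed, of which 45 had enough reads to be tested by limma. In MHE against MHS, 4 were higher and 2 lower at an unadjusted p under 0.05, together 13.3% of the 45 beside 9.54% of all genes, all with an adjusted p of 0.516. The higher ones were Smad5, a BMP signal transducer (0.39 ± 0.15 on the log2 scale), Smad4, the shared partner of the receptor-regulated SMADs (0.29 ± 0.12), the BMP receptor Bmpr1b (0.66 ± 0.28) and the SMAD corepressor Tgif1 (0.79 ± 0.33). The lower ones were the ligand Bmp4 (-0.41 ± 0.17) and the endothelial receptor Acvrl1 (-0.37 ± 0.16). Without MHS replicate 3, Bmpr1b was 0.26 and Acvrl1 -0.23, without MHE replicate 3 Tgif1 was 0.42, and without the libraries rich in liver reads Smad4 was 0.17. In PHE against PHS, 3 were higher and 1 lower, together 8.89% of the 45 beside 3.76% of all genes, all with an adjusted p of 0.991, namely Smad4 (0.27 ± 0.12), Smad9 (1.14 ± 0.52), the cell cycle inhibitor Cdkn1a (0.90 ± 0.41) and, lower, the BMP target Id3 (-0.46 ± 0.19). Cdkn1a was 0.55 without PHS replicate 2, and Smad9 rested on few reads, 5 to 21 per library. The list's median log2 difference was 0.00097 in the maternal and -0.054 in the paternal arm. Against NCS, 2 were higher and 2 lower in MHE (8.89% of the 45 beside 8.76% of all genes), 4 higher and 7 lower in PHE (24.4% beside 13.7%), and none in MHS or PHS (beside 4.04% and 2.87%).

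Smad4 averaged 1302 ± 192 normalized counts in MHE against 1061 ± 79.5 in MHS, and 1347 ± 143 in PHE against 1113 ± 40.0 in PHS, beside 1086 ± 51.9 in NCS (SD, n = 3 each). Smad2 and Smad3, which transduce myostatin and activin signals, did not differ past the unadjusted limit in either arm. Whether their differences were smaller than those of their partner Smad4 was not tested. Smad2 averaged 152 ± 19.1 in MHE against 118 ± 31.9 in MHS, and 163 ± 19.8 in PHE against 149 ± 12.8 in PHS, beside 152 ± 13.8 in NCS. Smad3 averaged 1059.5 ± 120.05 in MHE against 1324 ± 608 in MHS, and 1191 ± 35.7 in PHE against 1066 ± 137 in PHS, beside 1247 ± 404 in NCS. The TGF-beta type II receptor Tgfbr2 averaged 829.8 ± 165 in MHE against 698 ± 65.5 in MHS, and 690.2 ± 98.0 in PHE against 721 ± 59.8 in PHS, beside 767 ± 95.1 in NCS. Tgfb1, the founding ligand of the family, averaged 103 ± 16.8 in MHE against 115 ± 19.4 in MHS, and 99.3 ± 23.1 in PHE against 112 ± 12.3 in PHS, beside 91.8 ± 11.3 in NCS. The activin subunit gene Inhbb averaged 35.1 to 44.1 in the 5 groups, and Inhba, at 4.34 to 5.62, was too low to test. Wfikkn2, which encodes another myostatin-binding inhibitor, averaged 670.3 ± 91.4 in MHE against 765 ± 82.6 in MHS, and 675 ± 32.8 in PHE against 727 ± 135 in PHS, beside 872 ± 158 in NCS. Cdkn1a averaged 3289 ± 1889.7 in MHE against 1845 ± 739 in MHS, and 2914 ± 641 in PHE against 1649.6 ± 743 in PHS, beside 1267 ± 331 in NCS.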

How the data were processed

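RNA from quadriceps muscle of 15 mice was sequenced by the authors as 100-base single-end reads from ribosomal RNA-depleted, stranded libraries, per the labels' protocols. STAR 2.5.2b, featureCounts 1.5.2, DESeq2 1.11.8 and build mm10 are named in the submitters' processing notes; whether strand was used in counting is not stated there. The deposited values are a signal per gene, read counts divided by a size factor per sample, a form deduced from the values: all values were whole multiples of 1 step per column (100.0%, tolerance 0.001 of a read), so whole reads were recovered. Of 50686 genes, 50376 matched GENCODE M21 (GRCm38) by identifier. The identifier versions of Fst and Acvr1b differ from that annotation, so their exons may differ.

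Samples were grouped by the group label. Replicate numbers follow accession order and pair nothing. No library looked like a second deposit of another, since chi-square per degree of freedom within groups was 16.3 to 78.8. Differences were tested with limma 3.58.1 (R 4.3.3, trended prior). The 5 groups and 15 samples shared a single model of log2 values with a pseudocount of 1. It covered the 13499 genes whose mean reached 10, leaving 37187 genes untested. Benjamini-Hochberg adjustment ran over all tested genes within each of 9 comparisons and the F test. Such fold changes understate those of low genes. Alternatives were other pseudocounts, filters and scalings, edgeR 4.0.16, DESeq2 1.42.0, voom on the recovered reads, fits of only the groups compared, the leading number of the sample title or liver markers as covariates, and fits without doubtful or single libraries. The fit was tested on simulated counts. The genes, marker and pathway lists and tests were chosen with earlier results of these data known. All 10 genes are named with every value. Comparisons of the 10 with an unadjusted p under 0.05 are given in full, with all comparisons of Mstn and Fst. Other differences of the 10 were named where groups did not overlap or for contrast, after their values were seen. Pathway genes were named at an unadjusted p under 0.05 in an exercise comparison, plus 8 fixed ones. Genes most like Mstn and Fst were the top 5 by Pearson's r.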

Additional observations from a re-analysis of the deposited data

Results flagged for a closer look

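In these libraries the difference of Fst between offspring of exercised and sedentary dams had opposite signs in the maternal and paternal arms, which is what marks it for a closer look. The log2 difference was 0.73 in MHE against MHS and -0.53 in PHE against PHS, and the difference of these was 1.25 ± 0.30 (limma, unadjusted p = 0.000784, adjusted p = 0.999). All 3 MHE libraries lay above all 3 MHS libraries and all 3 PHE libraries below all 3 PHS libraries. Fst was flagged by this separation, which is therefore no separate support. Fst rested on 27 to 81 reads per library. The unadjusted p was below 0.05 under every alternative run, the highest being 0.0352 without the libraries over 100 CPM of liver markers, which leaves 1 MHS library. No adjusted p passed.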

How the results depend on the processing

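No paired analysis was possible because the replicate numbers follow accession order and pair no samples. Counts of genes called over the whole table were 0 in every comparison as reported. With the title number as covariate, MHE against MHS is MHE replicate 3 alone against MHS, and PHE against PHS is PHE replicate 2 alone against PHS replicates 1 and 2, so those values compare single libraries. In MHE against MHS the count was 60 by DESeq2 and 16 with the title number, and 0 to 109 when single replicates were left out (109 without MHS replicate 1). Of the 10 genes, 1 was called with the title number (Fstl1) and 0 to 1 without single replicates (Mstn, without MHS replicate 1). In PHE against PHS the gene count was 1 by DESeq2, 11 with the title number and 0 to 1 without single replicates (1 without PHS replicate 3). In MHS against NCS it was 18 by DESeq2 and 0 to 1 (1 without MHS replicate 3), in PHE against NCS 67 by DESeq2 and 0 to 1 (1 without NCS replicate 3), and in the difference of differences 1 with the title number. The DESeq2 likelihood ratio test over the groups called 1 of the 10, Mstn, and 186 of all genes.

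Of 33 named differences, 5 changed sign under at least 1 alternative, all of Mstn and none with an unadjusted p under 0.05 as reported; the cause was not tested. Mstn in MHS against NCS (-0.10) was 0.15 with the liver covariate, 0.38 without the libraries over 100 CPM of liver markers, 0.070 without the 2 libraries with fewest genes, and -0.44 to 0.25 without single replicates. Mstn in PHS against NCS (0.10) was -0.30 with the title number, -0.14 without the liver-rich libraries, -0.078 without the 2 libraries, and -0.078 to 0.21 without single replicates. Mstn in MHS against PHS (-0.20) was 0.035, 0.53 and 0.15 under the liver covariate and both removals, and -0.54 to 0.15 without single replicates. Mstn in MHE against PHE (-0.0083) was 0.054 by library totals, 0.0062 by edgeR, 0.0066 by DESeq2, and -0.19 to 0.22 without single replicates. The Mstn difference of differences (0.20) was -0.090, -0.54 and -0.16 under the liver covariate and both removals, and -0.16 to 0.53 without single replicates.

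Scaling to library totals shifted the median of all genes by 0.11 in MHE against MHS, 0.10 in PHS against NCS, -0.11 in MHS against PHS and 0.19 in the difference of differences. Relative to that median, Mstn was 1.02 in MHE against MHS and 0.81 in PHE against PHS, and -0.0025 in MHE against PHE, while the Fst difference of differences was 1.26.

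Without single replicates, the exercise differences of Mstn were 0.67 to 1.35 in the maternal and 0.68 to 1.01 in the paternal arm, and those of Fst 0.56 to 0.89 and -0.66 to -0.43. Fst had no value with a mean of at least 50, its mean being 49.98. The title number could be fitted only for both exercise comparisons, PHS and PHE against NCS, and the difference of differences. With 3 libraries per group and few reads for Fst and Fstl3, even differences well above the printed errors were not resolved after adjustment. Mstn at 1.02 ± 0.29 in MHE against MHS had an adjusted p of 0.516 by limma.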
